A study of Mus musculus with 8 samples.

Results

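Metallothioneins are small cysteine-rich proteins that bind zinc and copper, and the genes described here are 3 of them together with 7 genes that sense or move zinc. Mt1 and Mt2 encode the metallothioneins made in most tissues, Mt3 the one found mainly in brain, and Mtf1 the transcription factor that senses free zinc and acts on metal response elements. Slc30a1, Slc30a3 and Slc30a10 belong to the SLC30 family, whose members mostly move zinc out of the cytosol. Slc39a10, Slc39a12 and Slc39a14 belong to the SLC39 family, whose members bring zinc into it. In the brain Mt1 and Mt2 are made mainly by glia and are known to rise after injury, while Slc30a3 loads zinc into synaptic vesicles of excitatory neurons. The 10 genes were chosen by name, with earlier results of these data known, and were found through the RefSeq accession of each array probe. They had 14 probes among 56605 that were not controls, and all 14 were well above background in 16 of 16 channels.

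The study measured total RNA of right fronto-parietal cortex from 16 mice on 8 two-colour Agilent arrays. Its 4 groups were cryolesioned mice with microglia-derived Il6 deficiency (called Il6-deficient here), control Il6-deficient mice, cryolesioned floxed mice and control floxed mice, with 4 animals in each. A cryolesion is a freeze injury of the cortex, and the lesioned side was dissected. Floxed means that a gene is flanked by recombination sites, which leave it intact until a recombinase cuts them. The recombinase and its promoter, the ages and the time after lesion are not given in the sources used here. Each array held 1 animal per dye, and the arrays formed a ring: 2 set cryolesioned Il6-deficient against control floxed, 2 cryolesioned floxed against control Il6-deficient, 2 the cryolesioned genotypes against each other and 2 the control genotypes. No array set cryolesioned against control animals of the same genotype. The labels number the animals as replicates of a group, and p-values below measure the spread between them.

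Some facts of the whole series bear on the values. Between 59.2% and 65.9% of probes in a channel were well above background, and no spot was saturated. The brighter Il6 probe was well above background in 0 of 4 cryolesioned Il6-deficient, 0 of 4 control Il6-deficient, 3 of 4 cryolesioned floxed and 0 of 4 control floxed animals; which part of Il6 it reads relative to the deletion is not known here. Xist, the transcript that marks female cells, was well above background in 0 cryolesioned Il6-deficient, 1 control Il6-deficient, 0 cryolesioned floxed and 3 control floxed animals, so sex and lesion are partly mixed. Reactive astrocyte markers fixed as a list had mean log2 levels between 9.95 and 10.5 in cryolesioned Il6-deficient and between 10.5 and 11.2 in cryolesioned floxed animals. They lay between 7.58 and 8.16 in control Il6-deficient and between 7.60 and 7.97 in control floxed animals. Excitatory neuron markers lay between 10.9 and 11.4 in cryolesioned Il6-deficient against 11.6 and 11.7 in control Il6-deficient animals, and between 10.8 and 11.03 in cryolesioned floxed against 11.2 and 11.4 in control floxed animals. In a bulk sample, fewer cells of a type and less RNA per cell cannot be told apart.

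Metal response elements share a core that was searched here as TGCACNC or TGCGCNC on both strands. The search covered windows of 250 bases before a RefSeq start in build GRCm38.p6, and 9 of the 10 genes had a window. Such a start can lie inside the annotated gene, and distances below are from the start used for the window. Of the 250 bases, 206 lay inside the gene for Mt1, 84 for Slc30a1 and 82 for Slc39a12. For Slc30a3 and Slc39a10, 1 window each lay wholly inside the gene. Of 32851 such windows, 21.4% had at least 1 match and 1.26% had at least 3. Mt2 had 3 matches, 223, 128 and 50 bases before its start. Slc30a10 also had 3, at 233, 232 and 73 bases, the first 2 of which overlap on opposite strands. Mt1 had 1 match at 23 bases and Slc30a1 had 1 at 43 bases. Mt3 and Mtf1 had none, nor had Slc39a12 or either window of Slc39a10. Slc30a3 has 2 windows, 1 with a match at 77 bases and 1 without, which is the window inside the gene.

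The windows of the metallothionein genes and of the 3 SLC30 genes with matches are shown because the changes of these genes are set side by side below. Capitals mark the matches. The Mt2 window is chr8:94172368-94172617, the Mt3 window chr8:94152357-94152606 and the Slc30a10 window chr1:185454598-185454847, all on the plus strand, and the Slc30a3 window with the match is chr5:31108245-31108494 on the minus strand. The windows of Mt1 and Slc30a1 run into the annotated gene, so only 30 bases around the match are given, chr8:94179055-94179084 and chr1:191906727-191906756, both on the plus strand.
Mt2: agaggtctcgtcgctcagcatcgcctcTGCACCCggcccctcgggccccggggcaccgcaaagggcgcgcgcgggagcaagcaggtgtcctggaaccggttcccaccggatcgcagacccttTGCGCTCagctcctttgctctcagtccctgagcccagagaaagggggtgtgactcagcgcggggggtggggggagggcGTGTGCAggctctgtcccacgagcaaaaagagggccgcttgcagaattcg
Mt3: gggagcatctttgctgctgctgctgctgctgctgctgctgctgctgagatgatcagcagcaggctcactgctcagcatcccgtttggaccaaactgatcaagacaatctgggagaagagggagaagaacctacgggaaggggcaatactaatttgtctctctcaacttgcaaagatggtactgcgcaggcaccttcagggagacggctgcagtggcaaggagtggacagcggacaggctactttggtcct
Slc30a10: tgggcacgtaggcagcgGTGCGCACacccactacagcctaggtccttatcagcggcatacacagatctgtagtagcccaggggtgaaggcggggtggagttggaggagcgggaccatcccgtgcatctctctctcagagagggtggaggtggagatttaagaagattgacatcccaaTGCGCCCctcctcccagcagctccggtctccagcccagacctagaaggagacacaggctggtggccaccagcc
Slc30a3: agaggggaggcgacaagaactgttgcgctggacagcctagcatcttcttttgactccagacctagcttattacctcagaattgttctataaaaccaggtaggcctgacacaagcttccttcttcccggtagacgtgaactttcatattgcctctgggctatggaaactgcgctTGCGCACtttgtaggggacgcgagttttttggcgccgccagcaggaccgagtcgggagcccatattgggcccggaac
Mt1: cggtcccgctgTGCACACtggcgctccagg
Slc30a1: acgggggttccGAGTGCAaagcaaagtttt
A match describes these letters only and is not evidence of a bound site.

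**Figure D1:**
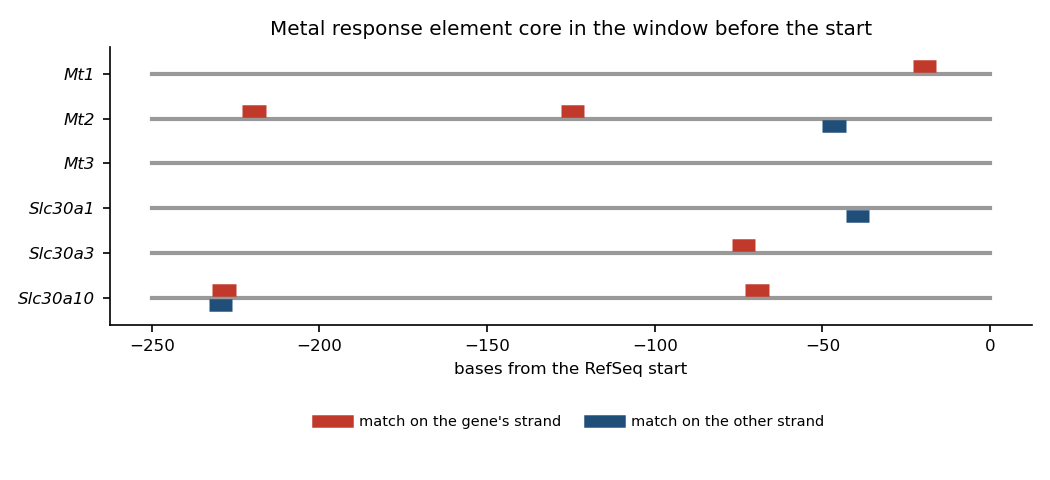
Positions of the metal response element core in the window before the RefSeq start, in bases from the start, for 6 of the genes; bars above each line are matches on the gene's strand and bars below it matches on the other strand. Mt2 and Slc30a10 have 3 matches each, Mt1, Slc30a1 and Slc30a3 have 1, and Mt3 has 0.

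After cryolesion Mt2 and the importer Slc39a14 rose, and the vesicular transporter Slc30a3 and the brain importer Slc39a12 fell, in the mean over both genotypes. Mt2 was 3.65-fold and Slc39a14 1.82-fold higher in cryolesioned than in control cortex. Slc39a12 was at 0.498 and Slc30a3 at 0.609 of the control level. These 4 of 10 genes were called, 2 higher and 2 lower, where 11.9% of all 29362 tested features were called in this comparison (6.02% higher, 5.87% lower). Members and lists were chosen with earlier results of these data known. Their counts beside those of all features, here and below, are therefore a description and no test of enrichment. The test was limma's moderated test on the within-array ratios, with p-values adjusted over all features and a threshold of 0.05. The median change of the 10 genes was -0.11 on the log2 scale. With replicate number as a further term, which leaves 2 residual degrees of freedom, 0 of the 10 genes and 2.63% of features were called, and the 4 genes had adjusted p-values of 0.0720 to 0.119.

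Most tested markers of infiltrating leukocytes were higher in the same comparison. Their mean log2 level lay between 7.95 and 8.24 in cryolesioned Il6-deficient against 7.18 and 7.32 in control Il6-deficient animals, and between 8.11 and 8.73 in cryolesioned floxed against 7.26 and 7.43 in control floxed animals. Of 9 tested, 6 were called higher and 0 lower, with a median of 0.61, and the neutrophil genes S100a9 and S100a8 had the largest changes, at 2.48 ± 0.22 and 2.24 ± 0.26 (SE). Of 10 reactive astrocyte markers 9 were higher and 0 lower, and of 10 microglia markers 1 was higher and 3 were lower. The part of these cells in the changes of the 4 genes was not tested.

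Mt2 lies at chr8:94172618-94173567, next to Mt1 and Mt3. Its log2 levels, which are dye channel intensities scaled between arrays, were 17.33, 16.28, 16.44 and 16.74 in the cryolesioned Il6-deficient animals, against 15.15, 15.27, 14.82 and 15.31 in the control Il6-deficient animals. They were 17.36, 17.84, 16.25 and 17.21 in the cryolesioned floxed animals, against 15.12, 15.17, 15.49 and 15.29 in the control floxed animals. All 8 cryolesioned animals lay above all 8 controls, and the 2 cryolesioned groups overlapped each other. The group means were 16.70 ± 0.46, 15.14 ± 0.22, 17.16 ± 0.67 and 15.27 ± 0.16 (SD, n = 4 each) in the same order. The fitted difference between cryolesioned and control cortex was 1.87 ± 0.30 on the log2 scale (SE, adjusted p = 0.0125). The call was lost when 1 of 3 arrays was left out: the adjusted p was 0.0664 and 0.0637 without the first or second array of cryolesioned floxed against control Il6-deficient animals, and 0.0517 without the second of cryolesioned Il6-deficient against control floxed animals.

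Mt1 lies at chr8:94178883-94180327 and moved less than Mt2. The animals' log2 levels were 17.39, 16.10, 16.22 and 16.80 in cryolesioned Il6-deficient, against 16.21, 15.98, 15.54 and 16.18 in control Il6-deficient animals. They were 17.35, 17.46, 16.37 and 17.26 in cryolesioned floxed, against 15.99, 16.21, 16.37 and 15.998 in control floxed animals. In the floxed genotype all cryolesioned animals lay above all controls, by a narrow margin at 16.37. In the Il6-deficient genotype animal 2 lay among the controls and animal 3 just above the highest of them. Levels are not corrected for dye, and the fitted Mt1 dye effect was 0.51 (Cy5 over Cy3). Animals 2 and 3 were labelled with Cy3, and the control Il6-deficient animals in that dye, at 15.98 and 15.54, lay below both. By limma Mt1 differed by 0.93 ± 0.25 (SE) with an adjusted p of 0.0536, so it was not called on this probe. Leaving out the second control array or the first array of the cryolesioned genotypes brought it past the threshold (adjusted p = 0.0282 and 0.00376). The dimmer Mt1 probe is annotated to a predicted transcript of the gene and had a mean log2 level of 7.36, against 16.46 for the brighter probe. In a fit of all probes the dimmer probe gave 0.83 ± 0.12 (SE, adjusted p = 0.00970). On that probe the cryolesioned Il6-deficient animals were at 7.24, 7.28, 7.26 and 7.65 against 7.24, 7.14, 7.18 and 6.98 in control Il6-deficient animals. The cryolesioned floxed animals were at 8.59, 8.10, 7.16 and 7.49 against 7.02, 7.31, 7.04 and 7.09 in control floxed animals, with the third cryolesioned animal among the controls. Mt1 and Mt2 have similar sequences, and whether their probes read both transcripts was not tested.

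Mt3, at chr8:94152607-94154148, did not pass the test. Its log2 levels were 11.65, 11.49, 11.55 and 11.22 in cryolesioned Il6-deficient, against 11.70, 11.28, 11.46 and 11.86 in control Il6-deficient animals. They were 12.12, 11.98, 12.06 and 11.92 in cryolesioned floxed, against 11.79, 12.43, 11.29 and 11.55 in control floxed animals. The control floxed animals spread widest, and cryolesioned and control animals overlapped in both genotypes. The fitted difference was 0.18 with a 95% interval of -0.27 to 0.63 (adjusted p = 0.600).

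**Figure D2:**
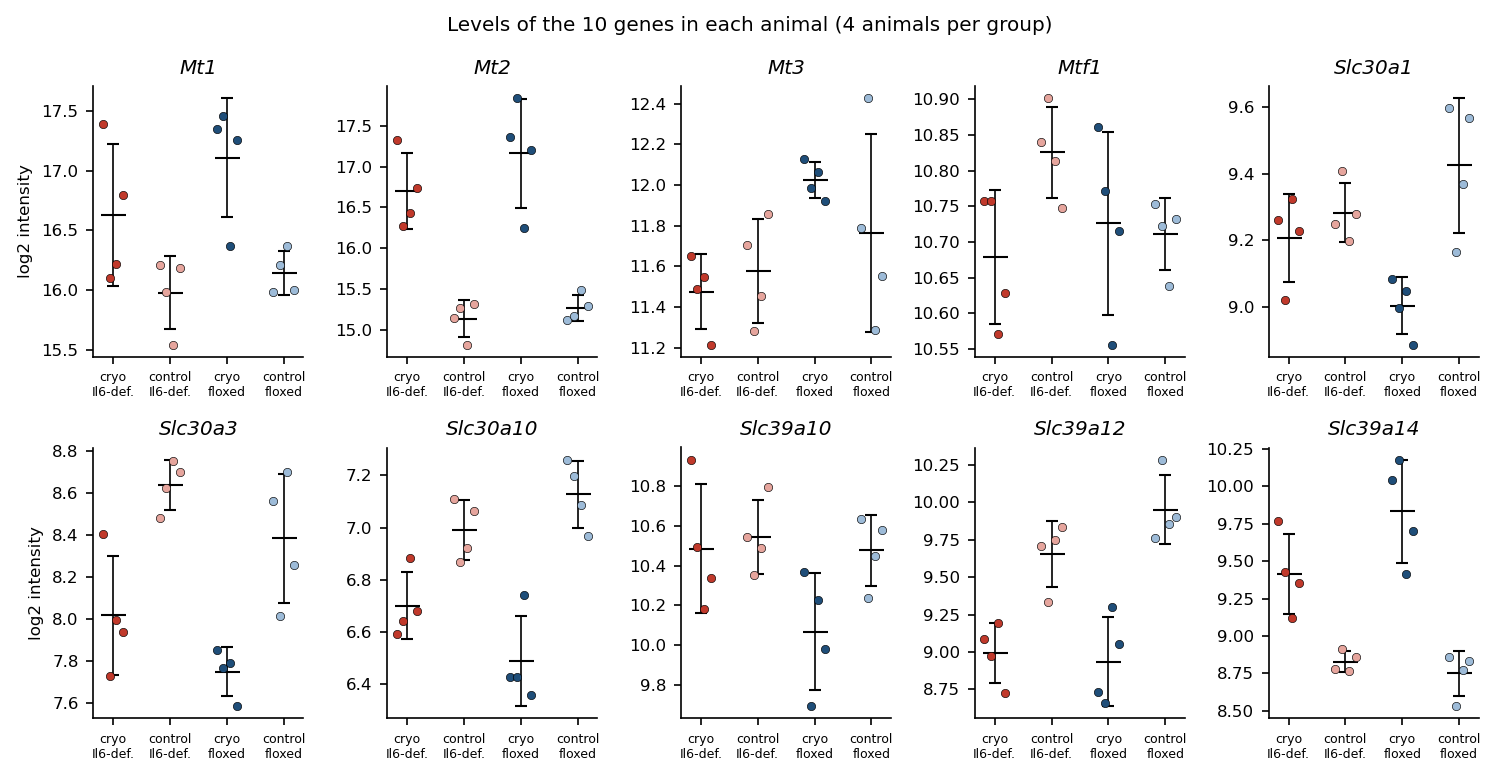
Log2 intensity of the 10 genes (brightest probe of each) in every animal of the 4 groups, with the mean and SD as bars; each panel has its own axis. Mt2 and Slc39a14 are higher and Slc39a12 lower in all 8 cryolesioned animals than in all 8 controls.

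Mtf1, the zinc sensor itself, showed no change past the threshold on any of its 3 probes. On its brightest probe the cryolesioned Il6-deficient animals had log2 levels of 10.76, 10.76, 10.57 and 10.63, against 10.84, 10.90, 10.81 and 10.75 in control Il6-deficient animals. The cryolesioned floxed animals had 10.86, 10.77, 10.56 and 10.72, against 10.75, 10.72, 10.64 and 10.73 in control floxed animals. The cryolesioned and control animals overlapped in both genotypes. For this probe the fit gave -0.02 with a 95% interval of -0.21 to 0.16 (adjusted p = 0.877). The other 2 probes gave -0.10 (adjusted p = 0.544) and 0.20 (adjusted p = 0.136) in the fit of all probes. Mtf1 lies at chr4:124802549-124849800. Its activity is known to be set by zinc binding, which an RNA level does not measure.

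Among the importers, Slc39a14 rose and Slc39a12 fell. Slc39a14 (chr14:70303467-70351452) encodes a surface importer of zinc, iron and manganese that is known as an acute-phase gene in mouse liver. Its log2 levels were 9.77, 9.42, 9.12 and 9.35 in cryolesioned Il6-deficient, against 8.78, 8.91, 8.76 and 8.86 in control Il6-deficient animals. They were 10.04, 10.18, 9.42 and 9.70 in cryolesioned floxed, against 8.86, 8.53, 8.77 and 8.83 in control floxed animals. Every cryolesioned animal was above every control. The fitted difference was 0.86 ± 0.18 (SE, adjusted p = 0.0291). This call was the least stable of the 4: it was made in 9 of 17 alternative settings, in all of which the gene was higher after cryolesion. Leaving out 1 array ended it in 5 of 8 cases, with an adjusted p of up to 0.143 without the second array of cryolesioned floxed against control Il6-deficient animals.

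Slc39a12 (chr2:14388316-14494977) encodes a zinc importer found mainly in brain. Its log2 levels were 9.08, 8.97, 9.19 and 8.73 in cryolesioned Il6-deficient, against 9.71, 9.34, 9.75 and 9.84 in control Il6-deficient animals. They were 8.74, 8.66, 9.30 and 9.05 in cryolesioned floxed, against 9.76, 10.28, 9.85 and 9.90 in control floxed animals. All 8 cryolesioned animals lay below all 8 controls, though the highest of them came close to the lowest control. The fitted difference was -1.01 ± 0.19 (SE, adjusted p = 0.0188). It was lost without the same 3 arrays as the Mt2 call (adjusted p between 0.0952 and 0.109). The astrocyte marker list, which includes other transporters, had 1 of 10 genes higher and 4 lower in the same comparison. The 4 were Glul, the glutamine synthetase, at -0.99, Aldoc, a glycolytic enzyme, at -0.86, and the gap junction genes Gja1 at -0.78 and Gjb6 at -0.75. Aqp4, the water channel, was higher by 0.72. The part of these cells in the Slc39a12 result was not tested.

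Slc39a10 (chr1:46807544-46925776), a surface zinc importer, did not pass the test. Its levels on the log2 scale were 10.93, 10.49, 10.18 and 10.34 in cryolesioned Il6-deficient, against 10.54, 10.35, 10.49 and 10.79 in control Il6-deficient animals. They were 10.37, 9.69, 10.23 and 9.98 in cryolesioned floxed, against 10.64, 10.24, 10.45 and 10.58 in control floxed animals. The groups overlapped in both genotypes. The fitted mean difference was -0.43 ± 0.14 (SE, adjusted p = 0.0879), and the dimmer probe gave -0.29 (adjusted p = 0.279).

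Of the SLC30 members, Slc30a3 fell. Slc30a3 (chr5:31086106-31108244) had log2 levels of 8.41, 7.73, 7.99 and 7.94 in cryolesioned Il6-deficient, against 8.48, 8.62, 8.75 and 8.70 in control Il6-deficient animals. It had 7.85, 7.77, 7.79 and 7.58 in cryolesioned floxed, against 8.56, 8.02, 8.70 and 8.26 in control floxed animals. Within each genotype all cryolesioned animals lay below all controls, with the first cryolesioned Il6-deficient animal close to them. Across genotypes that animal overlapped the control floxed group. The fitted difference was -0.72 ± 0.14 (SE, adjusted p = 0.0219), and leaving out any of the 4 arrays that pair cryolesioned with control animals moved the adjusted p to between 0.0641 and 0.0908.

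Some markers of the neurons that make Slc30a3 were lower beside it. Of 9 excitatory neuron markers tested, 0 were higher and 3 were lower in the same comparison: Lamp5, a lysosomal membrane protein, by -1.36, Tbr1, a deep-layer transcription factor, by -0.98, and Camk2a, a synaptic kinase, by -0.69 on the log2 scale. The defining marker Slc17a7, the vesicular glutamate transporter, changed by -0.06 ± 0.14 (SE, adjusted p = 0.827). Within Il6-deficient animals Slc17a7 stood at 0.34 and Cux2, an upper-layer transcription factor, at 0.31, neither called. The list's median was -0.49, against -0.0092 over all features. The part of neuron number in the Slc30a3 result was not tested.

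Slc30a10 (chr1:185454848-185468762), known as a surface exporter of manganese, narrowly missed the threshold. Slc30a10 had log2 levels of 6.59, 6.64, 6.88 and 6.68 in cryolesioned Il6-deficient, against 7.11, 6.87, 6.92 and 7.06 in control Il6-deficient animals. It had 6.42, 6.43, 6.74 and 6.36 in cryolesioned floxed, against 7.26, 7.20, 7.08 and 6.97 in control floxed animals. The floxed groups did not overlap, and the Il6-deficient groups met at 6.88 and 6.87. The fit gave -0.41 ± 0.11 (SE, adjusted p = 0.0563). It was called in 6 of 17 alternative settings, and the size of the change ranged from -1.01 with the scanner's processed signals (adjusted p = 0.0735) to -0.28 with replicate number as a term (adjusted p = 0.258).

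Slc30a1 (chr1:191906697-191913248) encodes the surface zinc exporter that is a known target of the Mtf1 protein. Its log2 levels were 9.26, 9.02, 9.32 and 9.23 in cryolesioned Il6-deficient, against 9.25, 9.41, 9.20 and 9.28 in control Il6-deficient animals. They were 9.08, 8.998, 9.05 and 8.89 in cryolesioned floxed, against 9.60, 9.16, 9.37 and 9.57 in control floxed animals. The cryolesioned floxed animals all lay below their controls, while the Il6-deficient groups overlapped. The fit gave -0.20 with a 95% interval of -0.43 to 0.04 (adjusted p = 0.254). The searched core was matched for Mt1 and Mt2, which had fitted values above 0. It was also matched for Slc30a1, Slc30a3 and Slc30a10, which had fitted values below 0. The part of the core in these changes was not tested.

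Ordering the 4 groups by mean level, without correction for dye, gave the same kind of split for 3 genes. For Mt2 and Slc39a14 the order ran cryolesioned floxed, cryolesioned Il6-deficient and then the controls, and the lower cryolesioned group did not overlap the higher control group. For Slc39a12 both control groups came first and did not overlap the cryolesioned groups. For the other 7 genes each pair of neighbours in the order overlapped. Over 8 cryolesioned against 8 control animals, 3 of the 10 genes did not overlap (2 above, 1 below), against 4.96% of all features (3.24% above, 1.73% below). Within floxed animals 7 of 10 did not overlap (3 above, 4 below), against 15% of features (7.14% above, 7.84% below). Within Il6-deficient animals 4 of 10 did not overlap (2 above, 2 below), against 17.7% of features (7.95% above, 9.79% below).

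Within one genotype no gene of the 10 was called by limma. In Il6-deficient animals Mt2 was 1.88 ± 0.43 (SE) higher after cryolesion (adjusted p = 0.0771) and 2.73% of features were called. In floxed animals Mt2 was 1.86 ± 0.43 (SE) higher (adjusted p = 0.0715) and 3.05% of features were called. Slc39a12 stood at -0.83 ± 0.26 in Il6-deficient animals (adjusted p = 0.158) and at -1.18 ± 0.26 in floxed animals (SE, adjusted p = 0.0659). Slc39a14 stood at 0.81 ± 0.26 in Il6-deficient animals (adjusted p = 0.163) and at 0.92 ± 0.26 in floxed animals (SE, adjusted p = 0.116). A fit that uses the 2 channels of an array separately, rather than only their ratio, called more. It called 7 of 10 genes in the mean comparison (28.7% of features), 4 in Il6-deficient animals (10.7%) and 7 in floxed animals (16.7%).

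**Figure D3:**
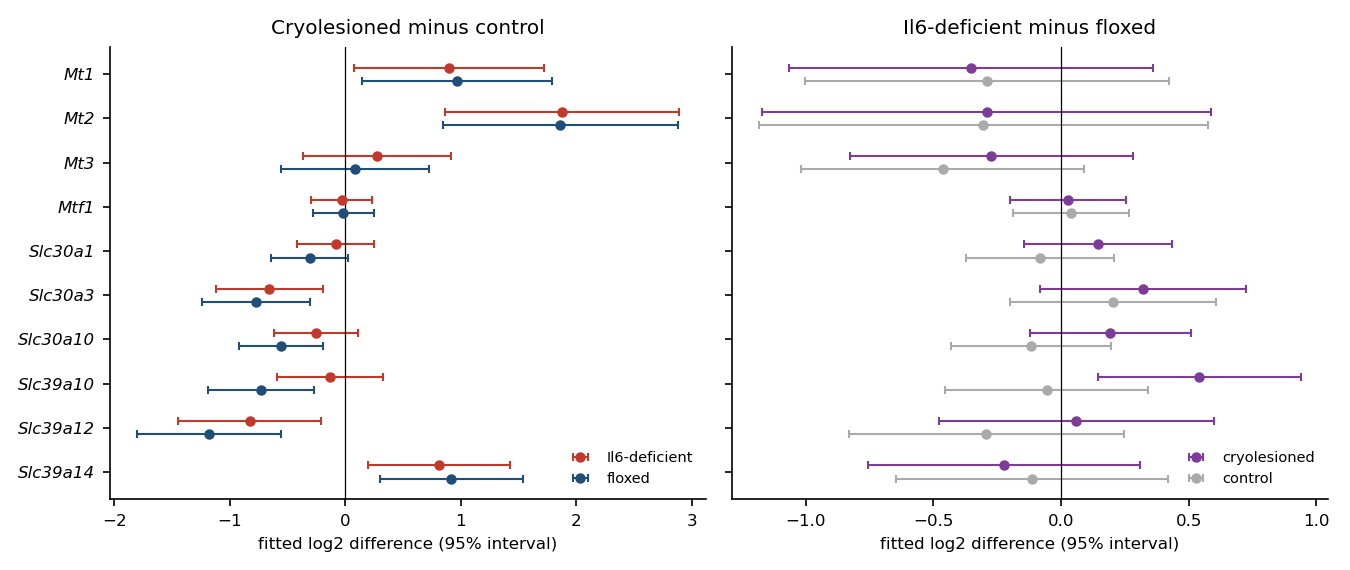
Fitted log2 differences with 95% intervals for the 10 genes: left, cryolesioned minus control in Il6-deficient and in floxed animals; right, Il6-deficient minus floxed in cryolesioned and in control animals. The Mt2 lesion difference is 1.88 in Il6-deficient and 1.86 in floxed animals, and on the right the interval of Slc39a10 in cryolesioned animals alone lies off 0.

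Genotype made no difference past the threshold. By limma, 0 of 10 genes and 0% of features were called between Il6-deficient and floxed animals among the cryolesioned, among the controls, or for the difference between the lesion effects. At an unadjusted p under 0.05 these comparisons held 2529, 1299 and 972 features, and the separate-channel fit called 1, 1 and 0 features (0.00341%, 0.00341% and 0%) and 0 of the 10 genes. For Mt2 the Il6-deficient minus floxed difference was -0.29 in cryolesioned animals with a 95% interval of -1.17 to 0.59, and -0.30 in controls with an interval of -1.18 to 0.57. The lesion effect on Mt2 differed between genotypes by 0.01, with an interval of -1.42 to 1.45. These intervals are wide, and they include changes larger than 2-fold in either direction for the Mt2 lesion effect.

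Slc39a10 and Mt3 stood out among the genotype values without being called. Slc39a10 was 0.54 ± 0.17 (SE) higher in cryolesioned Il6-deficient than in cryolesioned floxed animals (unadjusted p = 0.0145, adjusted p = 0.563), and both arrays that paired these groups had it higher, by 0.71 and 0.51. The dimmer Slc39a10 probe gave 0.30 ± 0.19 (SE, adjusted p = 0.696). Mt3 was lower in all 4 cryolesioned Il6-deficient animals, at 11.22 to 11.65, than in all 4 cryolesioned floxed animals, at 11.92 to 12.12. It was the 1 gene of 10 that did not overlap in this comparison, where 4.36% of features did not (1.34% below). The fitted Mt3 difference was -0.27 ± 0.23 in cryolesioned animals (SE, adjusted p = 0.731) and -0.46 ± 0.23 in controls (SE, unadjusted p = 0.0884, adjusted p = 0.983). Among controls 0 of 10 genes separated the genotypes, against 4.2% of features.

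The ratios on single arrays show where the spread of the lesion response lay. Mt2 was higher in the cryolesioned animal by 0.95 and 1.46 on the arrays of cryolesioned Il6-deficient against control floxed animals, and by 2.54 and 2.52 on those of cryolesioned floxed against control Il6-deficient animals. Slc39a14 was higher by 0.35 and 0.52 on the arrays of cryolesioned Il6-deficient animals and by 1.28 and 1.32 on those of cryolesioned floxed animals. Mt1 had ratios of -0.15 and 0.80 with cryolesioned Il6-deficient animals, against 1.81 and 1.27 with cryolesioned floxed animals. These ratios are not corrected for dye. The cryolesioned animal was in Cy3 for -0.15 and 1.27 and in Cy5 for 0.80 and 1.81, and the fitted Mt1 dye effect was 0.51 (Cy5 over Cy3). All 3 genes thus had the larger ratios on the arrays with cryolesioned floxed animals. On the arrays that paired the cryolesioned genotypes directly, Mt2 had Il6-deficient over floxed ratios of 1.08 and -0.93, Mt1 of 1.02 and -1.16, and Slc39a14 of 0.35 and -0.27. The direct pairs went in opposite directions, so they did not repeat that order. On each of these arrays the animal in Cy5 was the higher for all 3 genes.

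The ring of arrays gives the lesion difference in floxed animals by 2 routes. For Mt2 the route over the control arrays gave 2.60 and the route over the arrays of the cryolesioned genotypes gave 1.13, a gap of 1.47. The gap was 1.14 for Mt1 and 1.05 for Slc39a14. For the other 7 genes it lay between -0.83 and 0.37. Animals differ on each route, and the fit averages the 2 routes.

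**Figure D4:**
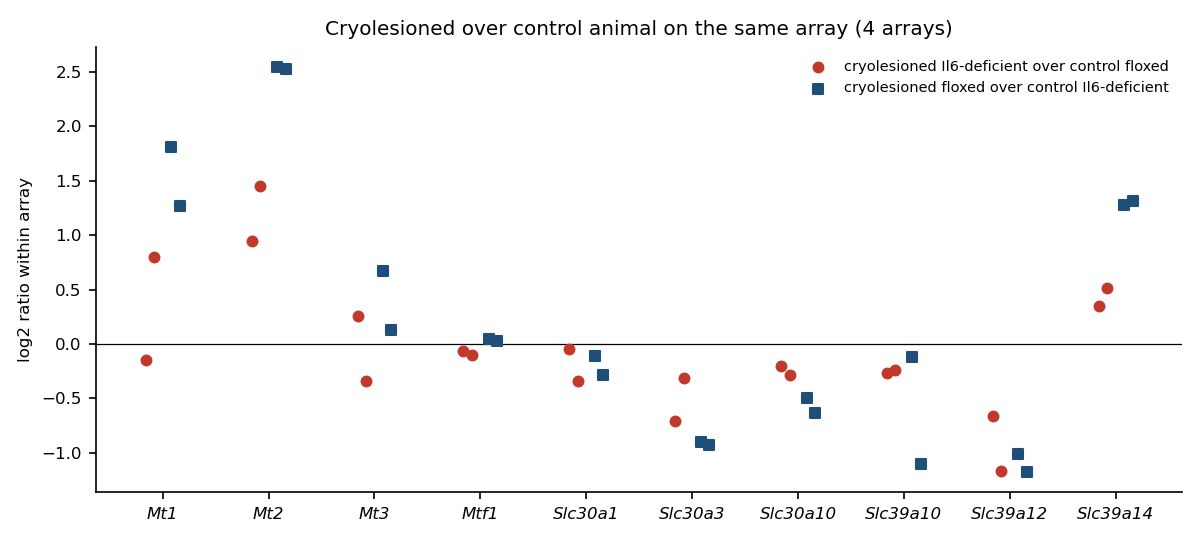
Log2 ratio of the cryolesioned over the control animal on each of the 4 arrays that pair them, for the 10 genes; circles are cryolesioned Il6-deficient over control floxed and squares cryolesioned floxed over control Il6-deficient. The ratios are not corrected for dye. Mt2 is above 0 on all 4 arrays, at 0.95 and 1.46 for the circles and 2.54 and 2.52 for the squares.

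The order of the cryolesioned animals was partly shared by Mt2, Mt1 and Slc39a14. In the cryolesioned floxed group animal 2 was highest for all 3 genes, then animal 1, animal 4 and animal 3. In the cryolesioned Il6-deficient group animal 1 was highest for all 3 genes, and Mt1 and Mt2 kept one order throughout, with animals 4, 3 and 2 behind it. Slc39a14 had animals 2, 4 and 3 behind it instead, so the lowest animal for Mt1 and Mt2 came next to the highest for Slc39a14. In the cryolesioned Il6-deficient group animals 1 and 4 were labelled with Cy5 and animals 2 and 3 with Cy3, so the order of Mt1 and Mt2 there split by dye. The fitted dye effect, Cy5 over Cy3 on the log2 scale, was 0.51 for Mt1 and 0.31 for Mt2. Cryolesioned floxed animals 1 and 4 were labelled with Cy5 and animals 2 and 3 with Cy3, so the highest and the lowest animal had the same dye. Within each dye the Mt2 difference between cryolesioned and control means was 1.88 for Cy5 and 1.58 for Cy3.

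Sex was entered from Xist as a covariate because it was unevenly spread. The animals with Xist were 3 of the 4 control floxed and 1 control Il6-deficient animal. Sex thus differed from membership of the control floxed group on the second control array alone, and its fitted effect rests on that array. This fit is therefore no full adjustment for sex. In Il6-deficient animals it called the same 1.91% of features as the fit without that array. With sex as a covariate the mean cryolesion difference by limma was 2.22 for Mt2 (adjusted p = 0.0150) and 1.13 for Slc39a14 (adjusted p = 0.0142). It was -1.31 for Slc39a12 (adjusted p = 0.00534) and -0.50 for Slc30a3 (adjusted p = 0.0349). Mt1 at 1.22 (adjusted p = 0.0382) and Slc30a10 at -0.52 (adjusted p = 0.0426) also passed. Among the 8 controls, Slc30a1 lay between 9.37 and 9.60 in the 4 animals with Xist and between 9.16 and 9.28 in the other 4, without overlap. It was the only one of the 10 genes to do so, and the share of all features that do is not given here. Of the 4 controls with Xist 3 were floxed, so sex and genotype are partly mixed in this split. The Mt2 levels of the same controls overlapped, at 15.12 to 15.49 and 14.82 to 15.31.

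Other genes of the zinc and copper system were read from lists. Of 6 further SLC30 genes tested, 0 were called in the mean cryolesion comparison by limma, with changes between -0.29 and 0.06. The separate-channel fit called 2 of these 6 lower, where it called 28.7% of all features. Of 10 further SLC39 importers, 1 was called, with a list median of -0.02. It was Slc39a1, a surface zinc importer, which had log2 levels of 12.41, 12.31, 12.22 and 12.22 in cryolesioned Il6-deficient, against 11.40, 11.45, 11.46 and 11.43 in control Il6-deficient animals. It had 12.55, 12.67, 12.08 and 12.35 in cryolesioned floxed, against 11.48, 11.51, 11.50 and 11.43 in control floxed animals. Each cryolesioned animal exceeded every control, and the controls hardly varied. Slc39a1 was higher by 0.96 ± 0.10 (SE, adjusted p = 0.00308), and it was called within the Il6-deficient (1.07, adjusted p = 0.0185) and the floxed animals (0.85, adjusted p = 0.0301) as well. Mt4, a metallothionein of stratified skin, was well above background in 2 of 16 channels and was not tested, and neither were Slc30a8 and Slc39a5, at 0 of 16.

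**Figure D5:**
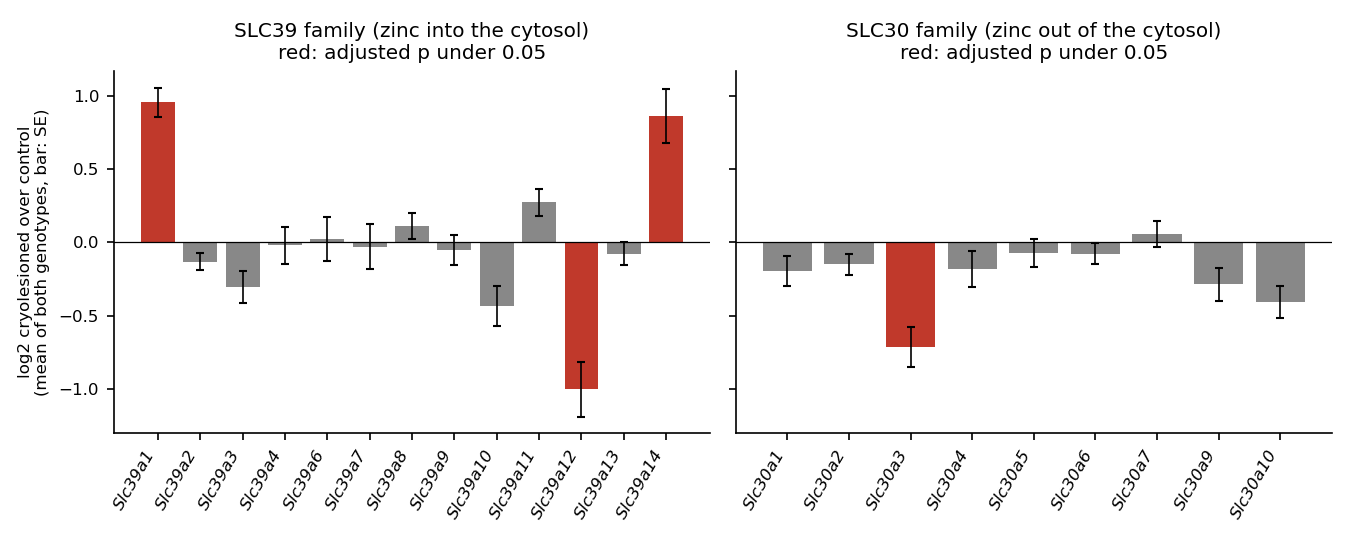
Log2 difference between cryolesioned and control cortex, mean of both genotypes, for the tested genes of the SLC39 and SLC30 families; error bars are SE and red marks an adjusted p under 0.05. Slc39a1 and Slc39a14 are higher, Slc39a12 and Slc30a3 lower, and no other bar is red.

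Of 13 copper handling genes 2 rose and 0 fell, where 6.02% of features were called higher and 5.87% lower. Using both channels separately raised this to 4 up and 1 down, but that fit called 28.7% of all features (3711 higher and 4709 lower of 29358). Cp, the copper-carrying ferroxidase ceruloplasmin, was higher by 1.25 ± 0.13 (SE, adjusted p = 0.00278) and Slc31a2, a low-affinity copper transporter, by 0.29 ± 0.063 (SE, adjusted p = 0.0302). A list of 12 genes held regulators known to act on metallothionein genes and some genes of the same pathways. Of these 5 rose and 2 fell, against the same 6.02% and 5.87% of features, with a median of 0.44. The counts were 6 up and 2 down with the channels used separately, against the same 28.7% of features. The 5 were Cebpd (3.54), the oncostatin M receptor gene Osmr (2.73), the feedback inhibitor Socs3 (1.92), Stat3 (1.58) and the antioxidant response factor Nfe2l2 (0.68). The 2 that fell were the glucocorticoid receptor gene Nr3c1 (-0.67) and its induced target Tsc22d3 (-0.72). Fkbp5, listed from the same pathway, went the other way. It was not among the 5, but the separate-channel fit put it higher by 0.81 (adjusted p = 0.00531). Control animals hybridised beside a cryolesioned one differed from the remaining controls by -0.26 to 0.18 for the 10 genes. In the same comparison Socs3 differed by 1.20, and the reactive astrocyte markers Lcn2, Timp1 and Gfap by 1.94, 0.58 and -0.31.

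The genes most like each of 4 members over the 16 animals were found by the Pearson correlation of log2 levels. All of these share the lesion difference and the arrays, so the values are a description. Mt2 was most like Il4ra (r = 0.976), Dis3 (0.974), Ampd3 (0.973), Emp1 (0.973) and Anxa2 (0.972). Mt1 was most like Trim16 (0.938) and Arhgef40 (0.927), then Mt2 itself (0.919), Ripk1 (0.910) and Gm36841 (0.909). Slc39a12 was most like Aass (0.970), Gm5089 (0.968), Pla2g7 (0.953), P2ry12 (0.952) and Cyp2j9 (0.951), all with fitted lesion differences below 0. P2ry12 is a receptor of resting microglia and changed by -1.47. Slc30a3 was most like Syngr1 (0.965), a synaptic vesicle gene, Slc24a3 (0.960), Zfp46 (0.952), Ankrd34a (0.951) and Atp6ap1 (0.945).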

How the data were processed

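Per the file headers, each array was quantified with Agilent Feature Extraction 10.7.3.1, as the submitters' processing notes also say; the deposited signal intensity columns are linear spot values. The deposited log10 ratio column (red over green, per the file headers) was used only to find the direction of the authors' deposited value table, which holds log2 ratios with unknown scaling (column medians -0.0045 to 0.0050). Here median signals were background-corrected (normexp, offset 50), loess-normalized, averaged per probe and kept where at least 4 of 16 channels were well above background. The brightest probe stood for a gene. Ratios were fitted with limma 3.58.1 in R 4.3.3 (3 group terms and a dye term, 4 residual degrees of freedom) and adjusted by Benjamini-Hochberg over 29362 features. The fit was tested on simulated data. Levels are channel intensities after Aquantile. All arrays share 1 slide and 1 scan. The number of animals limits precision. Replicate numbers were not taken to pair animals, since not every same-numbered pair's deviations correlated above 0.1 (-0.25 to 0.53 over all pairs, 0.12 to 0.36 for number 2, and 7 of 16 animals correlated best with their own number). Named genes were the 10 members, called list genes (at most 5 a list, save the regulators), defining markers and the 5 most alike. Members and lists were chosen with earlier results of these data known. Alternatives were another offset, normalization, signal, filter, probe rule, fit, a replicate block, sex, and leaving out each array.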

Additional observations from a re-analysis of the deposited data

Results flagged for a closer look

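On the dimmer Mt1 probe, cryolesioned Il6-deficient animal 4 had a log2 level of 7.65, while the other 3 animals of its group averaged 7.26. Its gap to the nearest animal was 0.885 of the range of the group. Of 56 groups of 4 animals looked at in this way over the 14 probes, 1 stood apart so far, and chance alone sets about 5% of such groups apart.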

How the results depend on the processing

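The number of the 10 genes called in the mean cryolesion comparison was 4, against 7 in the separate-channel fit (28.7% of features called) and 0 with the replicate block (2.63%, against 11.9% without it). In floxed animals it was 0, against 1 with offset 16, 2 with median centring, 1 with the processed signals, 1 with the authors' value table, 7 in the separate-channel fit (16.7%) and 3 with sex as a covariate, where the other settings called 1.22% to 3.38% of features. In Il6-deficient animals it was 0, against 1 with offset 16, 1 with the authors' value table, 4 in the separate-channel fit (10.7%) and 1 with sex as a covariate, where the other settings called 1.91% to 3.09%. The cause of these shifts was not tested; the replicate block leaves 2 residual degrees of freedom. Leaving out single arrays gave 0 to 6 called genes in the mean comparison, 0 to 4 in floxed and 0 to 1 in Il6-deficient animals, and 0 to 0 for genotype and its difference. Of all features these fits called 3.16% to 17.6% in the mean, 0.194% to 7.29% in floxed and 0.126% to 4.04% in Il6-deficient animals. In Il6-deficient animals the fit without the second control array gives the same result as that with sex as a covariate. The mean count was 0 without the second array of cryolesioned floxed against control Il6-deficient (3.42% of features) or the second of cryolesioned Il6-deficient against control floxed animals (3.16%), 1 without the first of the floxed kind (4.22%), and 6 without the second control array (17.6%) or the first array of the cryolesioned genotypes (11.8%).

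No called change turned its sign in any setting, and Mt1, Mt2, Slc30a3, Slc30a10, Slc39a12 and Slc39a14 kept theirs in all 17 settings of each cryolesion comparison. Only uncalled values near 0 turned. With sex as a covariate Mt3 was -0.10 in the mean, -0.19 in floxed and -0.0015 in Il6-deficient animals, Mtf1 was 0.049, 0.054 and 0.043, and in Il6-deficient animals Slc30a1 was 0.040 and Slc39a10 0.012. The separate-channel fit gave Mt3 -0.019 in Il6-deficient and Mtf1 0.0076 in floxed animals, and the processed signals gave Mtf1 0.0041 in floxed animals. Without single arrays Mt3 ranged from -0.11 to 0.32, -0.21 to 0.36 and -0.014 to 0.42, and Mtf1 from -0.074 to 0.035, -0.092 to 0.065 and -0.11 to 0.043, in the mean, floxed and Il6-deficient comparisons. In Il6-deficient animals Slc30a1 ranged from -0.18 to 0.040 and Slc39a10 from -0.35 to 0.014.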
